A study of Rattus norvegicus with 8 samples.

Results

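Proteasome subunits, ubiquitin-activating (E1), ubiquitin-conjugating (E2) and Ube3 ligase genes, and ubiquitin-specific proteases were followed in PC12 cells with and without forskolin. The members are the probe sets whose only annotated gene symbol starts with Psm followed by a letter from a to g, with Ube2 or Ube3, or with Uba or Usp followed by a digit. They number 220 of 31142 probe sets (chip A holds 135 of them, chip B 85) and stand for 129 of 13810 named genes. The members belong to 44 proteasome genes, 5 E1 genes, 31 E2 genes, 4 Ube3 genes and 42 Usp genes. A further 3 genes match a prefix but were put in none of these classes and were kept apart (Psmc3ip, Psme3ip1 and Usp6nl). PC12 is a line from a pheochromocytoma, a tumour of the rat adrenal medulla. Forskolin, spelled foreskolin in the sample titles, raises cyclic AMP by switching on adenylyl cyclase. Total RNA was measured on chip A and chip B, each with 2 forskolin arrays and 2 arrays without forskolin, which the series title calls an inactive control. The labels state no dose, exposure time or vehicle, and none was taken from elsewhere.

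The 26S proteasome degrades proteins that carry ubiquitin chains. Its 20S core is a stack of rings of alpha (Psma) and beta (Psmb) subunits, with the proteolytic sites on beta subunits, and its 19S cap binds the chains, removes them and unfolds the substrate with a ring of ATPases (Psmc). Ubiquitin passes from an E1 enzyme to an E2 enzyme and, with an E3 ligase, to the substrate, and deubiquitinases such as the Usp proteases take it off again. In mammalian cells protein kinase A, the kinase that cyclic AMP activates, is known to phosphorylate the 19S subunits Rpn6 (gene Psmd11) and Rpt6 (gene Psmc5), a change in the protein that RNA arrays do not measure.

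The promoters of a few genes on which the results turn are shown first, as 300 bases each from RefSeq (build GRCr8, 250 bases before to 50 after the annotated start). Usp2 is the only member gene called between the groups. Zfand2a and Siah2 had the largest called rises among 73 further pathway genes that were listed. Psmb2 is the only member promoter with a complete cyclic AMP response element. Capitals mark TGACG, the core of that element, on either strand, and TGACGTCA, the complete element.
Usp2, chr8:53310620-53310919, plus strand: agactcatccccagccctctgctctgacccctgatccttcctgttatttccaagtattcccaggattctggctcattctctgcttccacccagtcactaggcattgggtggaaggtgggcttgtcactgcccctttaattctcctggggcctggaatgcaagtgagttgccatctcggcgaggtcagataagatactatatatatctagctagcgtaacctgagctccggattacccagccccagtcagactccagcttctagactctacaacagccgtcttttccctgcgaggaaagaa
Zfand2a, chr12:20275200-20275499, plus strand: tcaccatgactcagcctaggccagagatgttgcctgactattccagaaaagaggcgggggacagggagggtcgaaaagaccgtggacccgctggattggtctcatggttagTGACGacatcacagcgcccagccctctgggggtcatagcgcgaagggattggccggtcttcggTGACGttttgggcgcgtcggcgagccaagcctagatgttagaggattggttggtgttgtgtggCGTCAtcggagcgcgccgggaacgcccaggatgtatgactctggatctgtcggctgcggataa
Siah2, chr2:145081626-145081925, minus strand: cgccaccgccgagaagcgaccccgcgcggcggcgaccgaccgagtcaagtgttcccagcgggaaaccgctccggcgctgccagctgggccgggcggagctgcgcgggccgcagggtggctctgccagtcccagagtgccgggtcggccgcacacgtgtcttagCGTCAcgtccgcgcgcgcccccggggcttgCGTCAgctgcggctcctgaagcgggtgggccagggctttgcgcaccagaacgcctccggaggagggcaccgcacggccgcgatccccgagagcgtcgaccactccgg
Psmb2, chr5:144254808-144255107, plus strand: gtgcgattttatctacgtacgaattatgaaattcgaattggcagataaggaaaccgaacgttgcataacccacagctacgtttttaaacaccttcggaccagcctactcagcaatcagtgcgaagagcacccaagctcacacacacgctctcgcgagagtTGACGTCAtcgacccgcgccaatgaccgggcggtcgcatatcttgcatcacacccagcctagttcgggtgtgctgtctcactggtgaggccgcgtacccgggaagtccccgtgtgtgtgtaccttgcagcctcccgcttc

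The motif search matched 110 of the 129 member genes to a RefSeq promoter and read both strands. TGACGTCA stood in 1 of the 110 member promoters, or 0.909%, against 1.89% of all 27457 promoters. TGACG, which the complete element contains, stood in 38 member promoters (34.5%) against 21.9% of all promoters. The Usp2 window held neither, the Zfand2a window held TGACG 3 times and the Siah2 window 2 times. TGACNNNGC, the core of the antioxidant response element, stood in 23.6% of member promoters and 12.2% of all promoters, and CCAAT in 36.4% and 37.7%. Of the 40 proteasome promoters found, 20 held CCAAT, 13 TGACG and 7 TGACNNNGC. The table gives 1 start a gene, and Usp2 is known to have alternative first exons. All promoters were taken without matching them to the members for base composition or expression, and why the shares differ was not tested. A match of letters is a description of the window and not a binding site.

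A few facts of the arrays bear on every value. Values are the authors' log2 expression values, and probe sets in the lowest 30% by mean brightness of a chip were not tested, which left 199 member probe sets for 125 genes. The genes without a tested probe set were Ube2d2b, Ube2u, Usp25 and Usp43. The response to forskolin was plain in Nr4a1, an orphan nuclear receptor, which rose 6.82-fold (limma adjusted p = 1.72e-07), and in 1 of the 2 Fos probe sets, which rose 16.4-fold (adjusted p = 1.96e-08) while the other measured a log2 difference of 0.06. Of the 10 chromaffin and PC12 markers with a probe set on chip A, 7 passed the brightness filter. Of these 2 were called higher, the transcription factors Phox2a and, on 1 of its 2 probe sets, Hand2. The other Hand2 probe set measured a log2 difference of 0.16 (limma adjusted p = 0.0876). Th averaged 11.75 in forskolin arrays and 11.64 without forskolin, while Dbh, Slc18a1 and Gap43 lay below the filter. No marker of blood, adrenal cortex, glia or fibroblasts was called, although the fibroblast marker Col3a1 was bright (11.83 with forskolin and 11.82 without). Whether the replicates were separate cultures is not stated, so p-values measure the spread between these arrays, which may be technical. In RNA from a whole culture, fewer expressing cells and less RNA per cell cannot be told apart.

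Of 126 tested member probe sets on chip A, 2 rose and none fell with forskolin. Both belong to Usp2, so 1 of 105 member genes tested on this chip was called. The share of members called was 1.59%, against 3.30% of all 11106 tested probe sets of the chip (limma with Benjamini-Hochberg adjustment over all of them, adjusted p under 0.05). Taking p under 0.05 with no adjustment, 6 members (4.76%) were higher and 15 (11.9%) lower, against 7.10% higher and 10.3% lower among all tested probe sets. The groups did not overlap in 62 of the 126 (49.2%), against 48.5% of all. On chip B none of 73 tested member probe sets was called by limma, against 0.159% of all 10693, and with no adjustment 4 had p under 0.05 and were higher (5.48%) and 2 lower (2.74%), against 1.64% and 3.33%. Over all tested probe sets the median 95% interval reached 0.210 either side of a difference on chip B and 0.103 on chip A, so a difference that chip A could show may go uncalled on chip B. The median log2 difference, forskolin minus no forskolin, was -0.016 over members and -0.0082 over all tested probe sets on chip A, and -0.021 and -0.026 on chip B.

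**Figure D1:**
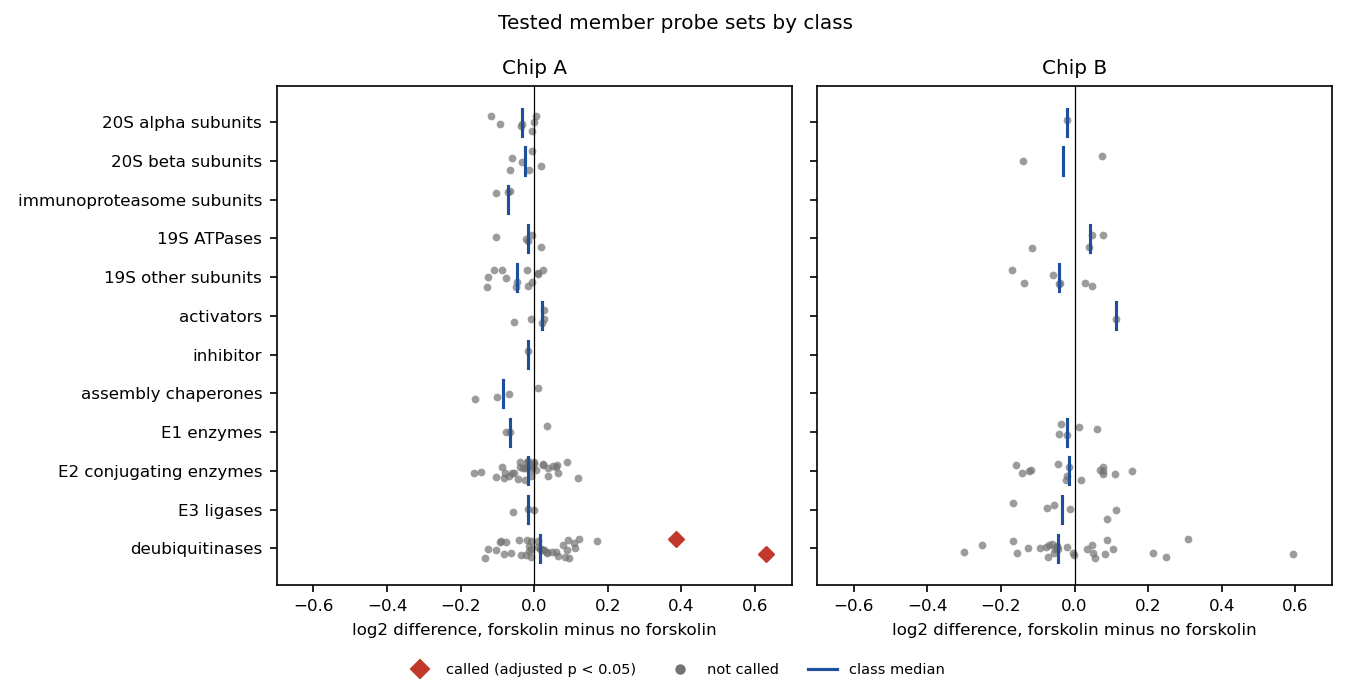
Log2 difference, forskolin minus no forskolin, of each tested member probe set (points) by class, on chip A (left) and chip B (right), with the class median as a blue bar. Genes kept outside the classes are left out. The 2 Usp2 probe sets on chip A, at 0.38 and 0.63, are the only called ones (red diamonds), and the 44 proteasome probe sets of chip A lie between -0.16 and 0.03.

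Usp2 encodes a ubiquitin-specific protease whose gene is known as a clock-controlled gene in mammals and whose human protein stabilizes Mdm2 and cyclin D1. Its probe set 1387703_a_at measured 8.51 and 8.59 in forskolin arrays, against 7.92 and 7.92 in arrays without forskolin (log2). The second probe set, 1375549_at, measured 8.77 and 8.80 with forskolin, against 8.36 and 8.44 without. In both, the 2 forskolin arrays lay above the 2 others without overlap, by several times the spread within a group. The rise was 0.63 ± 0.05 (log2, SE, n = 2), or 1.55-fold, in the first (limma adjusted p = 1.02e-04) and 0.38 ± 0.05, or 1.31-fold, in the second (limma adjusted p = 0.00187). Neither call was lost under any of the 10 alternatives run, in which the adjusted p stayed between 2.91e-07 and 0.0156 over both probe sets. No tested Usp2 probe set was on chip B.

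For the other deubiquitinases chip A had 37 further tested probe sets and chip B 29, and none was called by limma. With Usp2 counted, 4 of the class on chip A were higher (10.3%) and 3 lower (7.69%) with p under 0.05 before adjustment, against 7.10% and 10.3% of all tested probe sets. On chip B 4 were higher (13.8%) and 1 lower (3.45%), against 1.64% and 3.33%. The median of the class was 0.017 on chip A and -0.046 on chip B. Without regard to size, the forskolin arrays lay above the others in 15 of 39 deubiquitinase probe sets on chip A (38.5%) and below them in 7 (17.9%), where all tested probe sets gave 20.4% above and 28.0% below. On chip B the groups did not overlap in 8 of 29 deubiquitinase probe sets, 4 each way, against 10.4% above and 22.2% below, or 32.7% in all, among all tested probe sets. The median size of a difference, leaving out its sign, was 0.063 among deubiquitinases of chip A and 0.039 among E2 enzymes. It was 0.030 among proteasome probe sets and 0.048 over all tested probe sets there. On chip B these were 0.071, 0.079, 0.060 and 0.065, so E2 enzymes came above deubiquitinases. In the same order, median levels on chip A were 9.16, 9.82, 10.77 and 8.95 (log2). The median intervals there reached 0.102, 0.092, 0.085 and 0.103 either side of a difference. Whether brightness or precision accounts for the sizes was not tested.

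Usp38 and Usp11 came nearest to a call after Usp2. Usp38 measured 9.08 and 9.12 with forskolin and 8.93 and 8.93 without, a difference of 0.17 ± 0.04 (log2, SE, n = 2, limma adjusted p = 0.0649). Over the alternatives its adjusted p ran from 0.0346 to 0.203, with calls under median centring and quantile normalization, while its chip B probe set measured 0.06 with a wide 95% interval of -0.15 to 0.26. Usp11, an X-linked protease linked to repair of DNA by BRCA2, measured 10.44 and 10.43 with forskolin and 10.57 and 10.56 without, a difference of -0.13 ± 0.03 (adjusted p = 0.0842, and 0.0392 to 0.216 over the alternatives). Its probe set on chip B gave -0.13 as well, with overlapping groups (7.75 and 7.56 with forskolin, 7.61 and 7.95 without). Usp54 measured -0.12 on chip A (adjusted p = 0.167), Usp3, a histone deubiquitinase, -0.09 (0.285), and the 3 probe sets of Usp9x, a large X-linked protease of neural development, 0.02, 0.03 and 0.11.

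The widest differences on chip B were again among Usp genes; the median standard error of a difference was 0.089 there and 0.045 on chip A. Usp27x, an X-linked protease, measured 7.63 and 8.02 with forskolin against 7.09 and 7.37 without, a difference of 0.59 with a 95% interval of 0.25 to 0.94 (limma adjusted p = 0.635). Its forskolin arrays both lay above the others, but stood well apart from each other. Usp29, from an imprinted domain, measured 0.31 and Usp33, which binds the von Hippel-Lindau protein, -0.30 (adjusted p = 0.879 each). On chip A Usp33 measured -0.06 (95% interval -0.19 to 0.06), with overlapping groups. Usp24 measured 7.35 and 7.34 with forskolin against 7.44 and 7.76 without (-0.25, adjusted p = 0.977) and had the opposite sign on chip A (0.09, adjusted p = 0.320). Usp42, a protease that acts on p53 in human cells, had 3 tested probe sets on chip B with differences of 0.05, 0.21 and 0.25 (lowest adjusted p = 0.975) and 1 on chip A that was too dim to test, at 6.60 and 6.76 with forskolin and 6.21 and 6.43 without. Usp14, which trims chains at the proteasome, measured 11.37 and 11.43 with forskolin and 11.39 and 11.50 without, and Usp7, which acts on Mdm2 and p53, -0.01 on chip A.

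**Figure D2:**
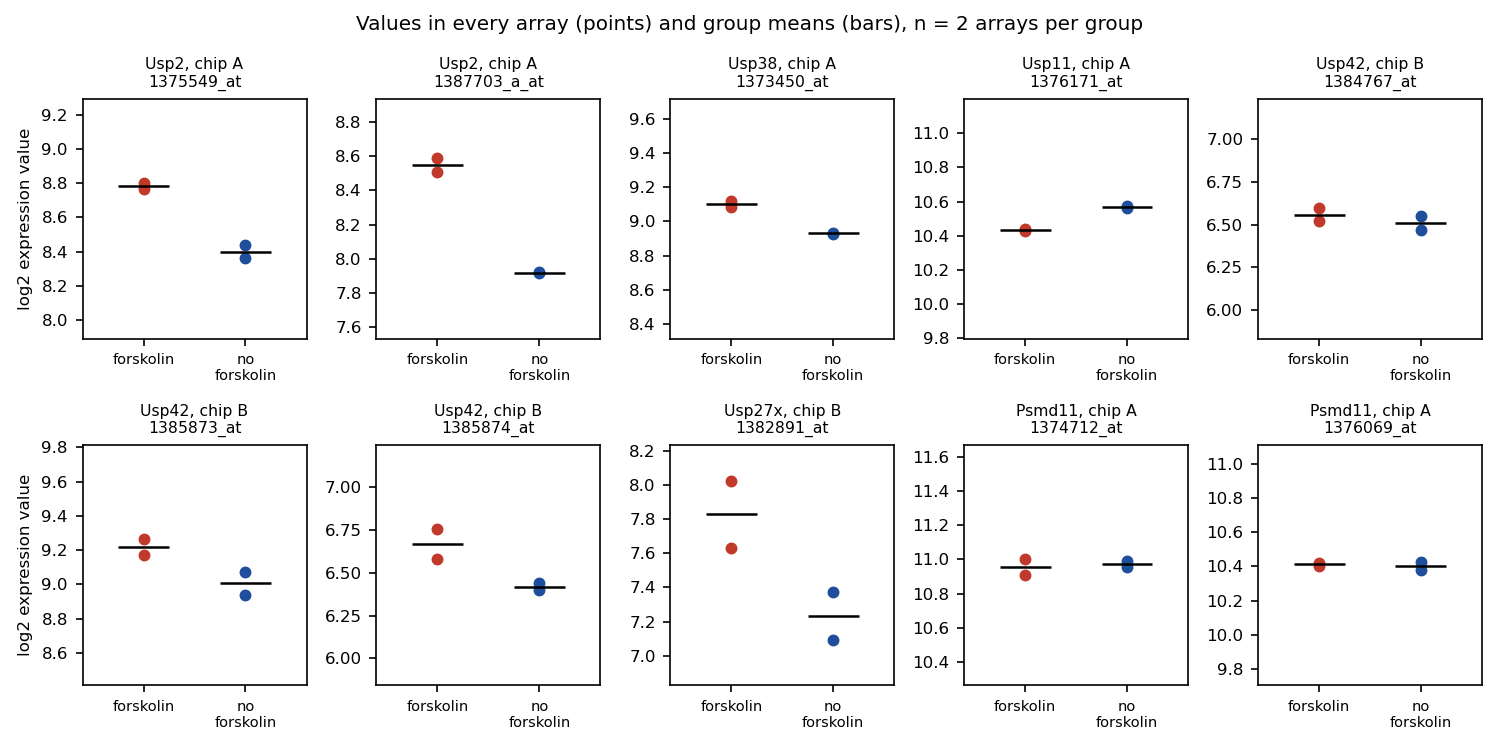
Log2 expression value in every array (points; forskolin red, no forskolin blue) and group means (black bars, n = 2) for the probe sets of Usp2, Usp38, Usp11, Usp42, Usp27x and Psmd11. Every axis spans the same range of log2 units. The 2 Usp2 probe sets show the groups apart, the 2 Psmd11 probe sets overlap, and the forskolin arrays of Usp27x lie widely apart from each other.

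No proteasome probe set was called by limma, out of 44 tested on chip A, for 41 genes, and 15 tested for chip B. With no adjustment, 8 on chip A had p under 0.05 and were lower (18.2%, against 10.3% of all tested probe sets) and 0 higher (against 7.10%), and on chip B 0 in either direction (against 3.33% lower and 1.64% higher). On chip A their differences ran from -0.16 to 0.03 (log2) with a median of -0.027, and their 95% intervals all lay between -0.27 and 0.16. No interval there thus reached a fall of more than 1.21-fold or a rise of more than 1.12-fold. On chip B the same bounds were a fall of 1.40-fold and a rise of 1.26-fold. The proteasome probe sets on chip A leaned below 0, with 34 of 44 negative (77.3%) against 55.0% of all tested probe sets. The forskolin arrays lay below the others in 16 of the 44 (36.4%, against 28.0% of all) and above them in 1, Psmc4 (2.27%, against 20.4%). The arrays were not alike in this: relative to the mean of the 4 arrays, the median proteasome probe set stood at -0.044 in forskolin replicate 1 and 0.003 in forskolin replicate 2, against 0.021 and 0.016 without forskolin. Over all tested probe sets these medians were -0.013 and 0.0056 in the forskolin arrays, against -0.0017 and 0.012 without forskolin. Without forskolin replicate 1 the proteasome median was -0.0072 and 24 of 44 were negative, with an all-probe-set median of 0.0016. Without forskolin replicate 2 the proteasome median was -0.054 and 38 were negative, with an all-probe-set median of -0.018. With quantile normalization 28 were negative, with a proteasome median of -0.021 and an all-probe-set median of -0.0077. On chip B, with the authors' scaling, 8 of 15 were negative (53.3%, against 61.9% of all tested probe sets there).

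**Figure D3:**
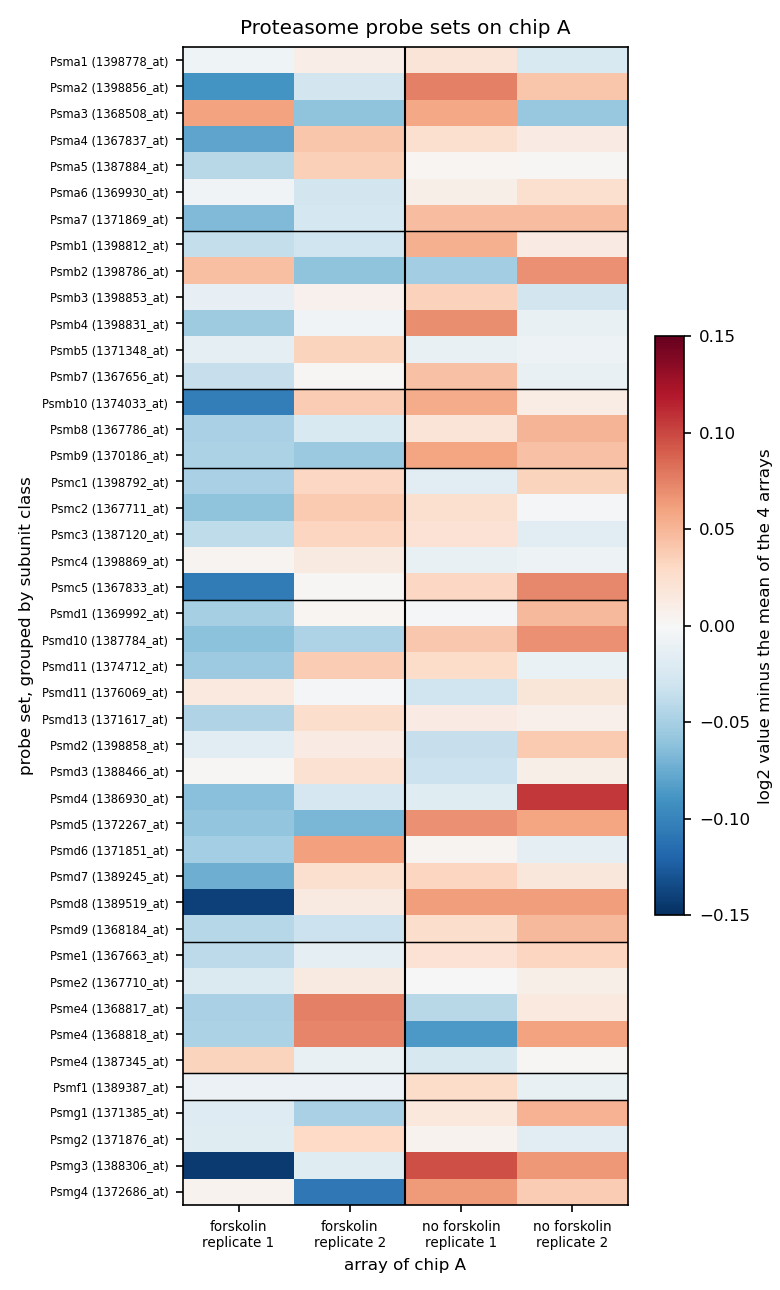
Each row is a proteasome probe set of chip A, grouped by subunit class, and each column an array; the colour is the log2 value minus the mean of the 4 arrays (blue lower, red higher). The forskolin replicate 1 column is the bluest, with a median of -0.044, while forskolin replicate 2 has a median of 0.003.

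On chip A no subunit of the 20S core differed by more than 0.12. The 7 alpha subunit probe sets of chip A had a median of -0.033. Psma2 was the lowest of them, at 10.79 and 10.85 with forskolin and 10.96 and 10.92 without (-0.12 ± 0.04, limma adjusted p = 0.147), and Psma7 measured 11.35 and 11.39 with forskolin and 11.47 and 11.47 without (-0.09, 0.179). Psma6 measured -0.03 and Psma4 -0.04. Among the 6 beta subunit probe sets the median was -0.024, and Psmb5, which carries the chymotrypsin-like site and is the main target of proteasome inhibitors, measured 12.38 and 12.42 with forskolin against 12.38 and 12.38 without. Psmb1 (-0.07), Psmb4 (-0.06) and Psmb7 (-0.03), which includes the trypsin-like site, gave small negative differences, and Psmb2, whose promoter window holds the complete element shown above, -0.02. On chip B, Psma7 measured -0.02 and the 2 Psmb5 probe sets 0.07 and -0.14, the second with a suffix (_x_at) that marks possible cross-hybridization.

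The immunoproteasome subunits, interferon-inducible replacements for the proteolytic beta subunits, all measured below 0 on chip A without a call. Psmb9 measured 10.10 and 10.09 in forskolin arrays, against 10.20 and 10.19 without forskolin (-0.10 ± 0.04, limma adjusted p = 0.182). Psmb8 measured -0.07 and Psmb10 -0.07. The activators that cap the core in place of the 19S particle differed in sign: Psme1 and Psme2, which form the interferon-inducible PA28 ring, measured -0.05 and -0.01, and the 3 probe sets of Psme4 (PA200) 0.02, 0.03 and 0.03, while Psme1 on chip B measured 0.11. Psmf1, an inhibitor of the core, measured 9.32 and 9.33 with forskolin and 9.36 and 9.32 without.

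The subunits that protein kinase A is known to phosphorylate were not called at the RNA level. Psmd11 measured 10.91 and 11.00 in forskolin arrays, against 10.99 and 10.95 without forskolin, on its first chip A probe set, and 10.42 and 10.40 against 10.38 and 10.43 on the second. The groups overlapped in both, and the 95% intervals of the differences were -0.11 to 0.08 and -0.07 to 0.09; its chip B probe set measured -0.04. Psmc5 measured 11.16 and 11.27 with forskolin and 11.30 and 11.34 without, with both forskolin arrays below, a difference of -0.10 ± 0.04 (limma adjusted p = 0.246). The other 19S ATPases on chip A, Psmc1, Psmc2, Psmc3 and Psmc4, lay between -0.02 and 0.02, and the 2 tested Psmc6 probe sets on chip B measured 0.04 and -0.12.

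The Psmd genes had 13 probe sets on chip A, with a median of -0.046. They include the assembly chaperones Psmd5, Psmd9 and Psmd10 beside subunits of the 19S cap. Psmd5, a chaperone that holds the ATPase ring during assembly, measured 10.47 and 10.47 with forskolin and 10.60 and 10.59 without (-0.13 ± 0.03, limma adjusted p = 0.0961, and 0.0469 to 0.248 over the alternatives). Psmd10 (gankyrin), likewise an assembly chaperone, measured -0.11 (0.175), and Psmd8, a subunit of the lid, -0.13 (0.249). Psmd4, a ubiquitin receptor of the cap, measured -0.09 and Psmd9 -0.08 on chip A and -0.17 on chip B. Psmd14, the deubiquitinase of the lid that cuts chains off substrates, was on chip B, where its 3 probe sets measured -0.04, 0.03 and 0.05, and Psmd12 there measured -0.14. Of the chaperones of core assembly, Psmg3 measured 9.96 and 10.08 with forskolin and 10.20 and 10.16 without (-0.16 ± 0.05, adjusted p = 0.131, and 0.0469 to 0.334 over the alternatives), Psmg4 -0.10, Psmg1 -0.07 and Psmg2 0.01.

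The E1 enzymes start the pathway. Chip A had 3 tested E1 probe sets and chip B 5. None was called by limma, and none had an unadjusted p under 0.05. Over all tested probe sets, 3.30% of chip A and 0.159% of chip B were called. With no adjustment, 7.10% were higher and 10.3% lower for chip A, and 1.64% and 3.33% for chip B. So few E1 probe sets cannot show whether the class differs from those shares. Uba1, the main ubiquitin-activating enzyme, is the 1 member probe set that both chips carry; it measured 0.04 on chip A and -0.02 on chip B. On chip A it stood at 11.55 and 11.56 with forskolin and 11.53 and 11.50 without. Uba2, which activates SUMO, measured -0.08 (limma adjusted p = 0.290) and Uba3, which activates Nedd8, -0.06. Uba6, which activates ubiquitin and FAT10, measured -0.04 and 0.06 on chip B, and Uba7, which activates ISG15, 0.01 and -0.04.

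No E2 probe set was called by limma, out of 35 tested on chip A and 15 tested on chip B, and the class medians were -0.017 and -0.015. With no adjustment, 2 had p under 0.05 and were higher (5.71%, against 7.10% of all) and 3 lower (8.57%, against 10.3%) on chip A, and 0 on chip B (against 1.64% and 3.33%). The 2 lowest were Ube2k and Ube2g2. One Ube2k probe set (an enzyme that builds lysine-48 chains) measured 8.43 and 8.47 with forskolin and 8.59 and 8.64 without, -0.16 ± 0.04 (limma adjusted p = 0.106), while its other probe set on that chip measured -0.03. Ube2g2, an enzyme of degradation at the endoplasmic reticulum, measured 8.68 and 8.69 with forskolin and 8.82 and 8.84 without (-0.15 ± 0.04, adjusted p = 0.114) and -0.16 on chip B (0.977). Ube2j1, a membrane-bound enzyme of the same route, measured 8.58 and 8.51 with forskolin and 8.42 and 8.43 without (0.12, adjusted p = 0.213). On chip B Ube2j1 measured -0.04, and Ube2j2 measured -0.09 on chip A (adjusted p = 0.317). Ube2l3, a partner of HECT and RBR ligases, measured -0.10 on 1 probe set and -0.01 on the other, and Ube2m, the conjugating enzyme of Nedd8, 0.06. On chip B, Ube2a measured -0.14, Ube2d3 0.08, the 2 tested Ube2v1 probe sets 0.02 and 0.07, and the 2 Ube2ql1 probe sets 0.11 and 0.16.

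The ligases named Ube3 were few, with 3 tested probe sets on the first chip and 6 on the second. None was called by limma or had an unadjusted p under 0.05. Among all tested probe sets, 3.30% were called on the first chip and 0.159% on the second. Before adjustment, 7.10% were higher and 10.3% lower on the first, and 1.64% and 3.33% on the second. A class this small cannot be told from those shares by its counts. Ube3a, the ligase lost in Angelman syndrome, measured 8.19 and 8.33 with forskolin and 8.26 and 8.37 without on chip A. Its 4 probe sets on chip B ran from -0.17 to 0.11, with 95% intervals that reached a fall of 1.46-fold and a rise of 1.34-fold. Ube3b measured -0.02 and Ube3c 0.00020 on chip A. Of the 3 genes kept outside the classes, Usp6nl (a GTPase-activating protein) had the largest difference, -0.29 on 1 of its 3 chip B probe sets (limma adjusted p = 0.879). Psme3ip1 measured -0.11 and Psmc3ip, a factor of meiotic recombination, -0.02.

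Further genes of the ubiquitin pathway were read through a list of 73, chosen with earlier results of these data known. Tested probe sets were found for 58 of them on the first chip and 22 on the second. On chip A 4 of 79 probe sets rose and none fell by limma (9 higher and 3 lower with p under 0.05 before adjustment). Over all tested probe sets of that chip 3.30% were called, and 7.10% were higher and 10.3% lower before adjustment. The list was not drawn independently of these data, so its counts are a description and not a measure against those shares. None of the list's 34 probe sets on chip B was called by limma (0 with p under 0.05 before adjustment, against 1.64% higher and 3.33% lower over all). The median of the list was -0.0036 on chip A. Zfand2a, known as the arsenite-inducible AIRAP protein that binds the proteasome, measured 10.29 and 10.25 in forskolin arrays, against 9.59 and 9.53 without forskolin, a rise of 1.64-fold (0.71 ± 0.04, limma adjusted p = 1.45e-05). Siah2, a RING ligase of the response to low oxygen, measured 8.18 and 8.33 with forskolin and 7.61 and 7.64 without, a rise of 1.55-fold (0.63 ± 0.06, adjusted p = 3.58e-04). For both the forskolin arrays lay well above the others, while Siah1, the relative of Siah2, measured -0.01.

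Zfand5, a zinc finger protein that stimulates the proteasome in mammals, rose 1.17-fold on 1 probe set, which measured 9.59 and 9.53 with forskolin and 9.33 and 9.35 without (limma adjusted p = 0.0224; 0.106 without forskolin replicate 1 and 0.0825 with the replicate number as a block). Its brighter probe set measured 11.50 and 11.43 with forskolin and 11.27 and 11.33 without (0.16, adjusted p = 0.0628), and its chip B probe set 0.04. Mdm2, the ligase of p53 and a substrate of Usp2 in human cells, rose by 0.18 on 1 of its 2 chip A probe sets (adjusted p = 0.0420). That call was lost without the brightness filter (limma adjusted p = 0.0574), without the intensity trend in the fit (0.0587) and with the replicate block (0.0905). It was also lost when any 1 of the 4 arrays was left out, where the difference ran from 0.17 to 0.20. Mdm2 measured 0.12 on the other chip A probe set and 0.16 on chip B (limma adjusted p = 0.977). Transcription factors of subunit genes were not called: the 3 Nfe2l1 probe sets measured 0.02, 0.05 and 0.16, and Nfe2l2 -0.05. Adrm1, a ubiquitin receptor of the cap, measured 0.12, Pomp, the maturation protein of the core, -0.06, the neuronal hydrolase Uchl1 0.01 and the segregase Vcp -0.05 on chip A. Beside the 9 higher there, the 3 lower with limma p under 0.05 before adjustment were Otud4 (-0.15), Sem1 (-0.10) and Skp1 (-0.06). On chip B Sem1 measured -0.18 and Otud4 -0.06.

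**Figure D4:**
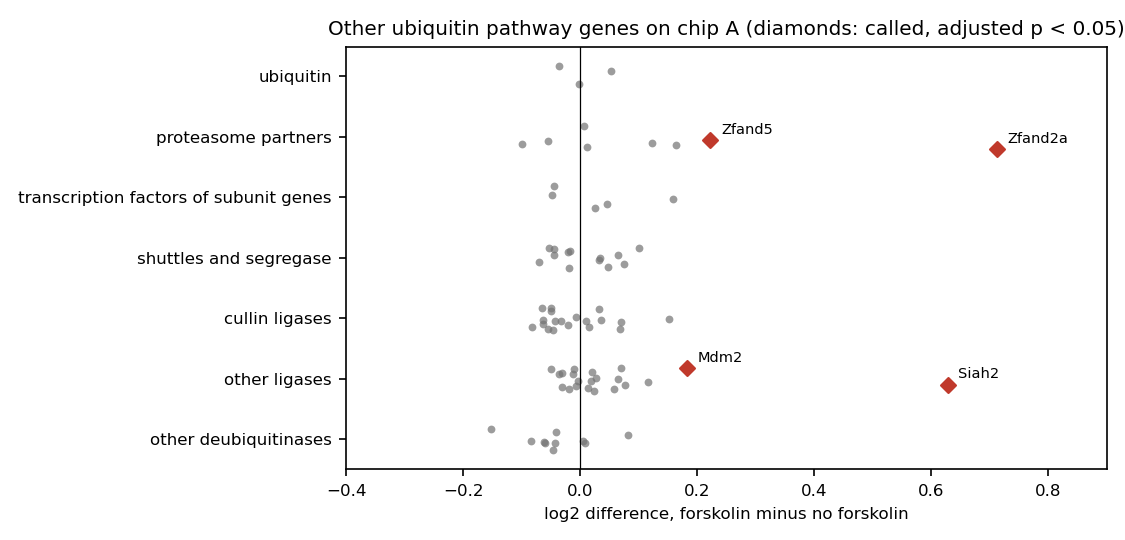
Log2 difference, forskolin minus no forskolin, of the tested probe sets on chip A of 7 groups of further ubiquitin pathway genes. Zfand2a (0.71), Siah2 (0.63), Zfand5 (0.22) and Mdm2 (0.18) are called (red diamonds), and the other 75 probe sets (grey) are not.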

How the data were processed

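The authors' deposited log2 values, 1 for each array and probe set, were used as given; the base was inferred from their range, and the background correction, summary and scaling behind them are not stated in the labels. Array medians differed by less than 0.03 on each chip (8.15 to 8.17 on chip A, 6.77 to 6.79 on chip B), so no further scaling was applied. The number of arrays limits precision: the median standard error of a log2 difference was 0.045 on chip A and 0.089 on chip B.

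Probe sets were named from GEO's platform annotation, updated by Entrez number to RefSeq (GRCr8). A further 12 probe sets carry a member symbol together with another symbol and were not used. Probe sets with a mean linear value below the 30th percentile of their chip were left out of the tests. Each chip was fitted separately across all tested probe sets with limma 3.58.1 (R 4.3.3; lmFit, eBayes with intensity trend, two-sided), with Benjamini-Hochberg adjustment over the chip and calls at adjusted p under 0.05; intervals are 95%. The steps were tested on simulated data. Named members were every called probe set, the 4 smallest p-values in each class and chip, and a panel of well-known members; others complete their class and were chosen after their values were seen. Members, gene lists and rules were chosen with earlier results of these data known, and the per-class alternatives, the promoters shown and the grouping of assembly chaperones after the values were seen.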

Additional observations from a re-analysis of the deposited data

How the results depend on the processing

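Both Usp2 calls were kept under all 10 alternative fits. Chip A gave 366 calls over all probe sets, 577 with median-centred arrays, 205 with the replicate number as a block and 253 to 431 without each array in turn; member calls there were 2, or 6 with median centring, where Usp38 was added higher and Psmd5, Psmg3 and Usp11 lower, and 3 with quantile normalization. Chip B gave 17 calls, 30 with quantile normalization and 11 to 94 without each array, but 0 member calls in each fit; 94 stands for no forskolin replicate 1 left out, 46 for no forskolin replicate 2 and 11 for forskolin replicate 2. The replicate block gave 2 member calls on chip A and 0 members among 17 calls on chip B, and changed the call of no member; it was not in the main fit because the labels give arrays only a number (deviations of same-numbered arrays correlated at 0.0034 on chip A and 0.20 on chip B). Medians of members without each array ran from -0.035 to 0.0038 on chip A and from -0.040 to 0.034 on chip B. By class these were -0.054 to -0.0072 (proteasome), -0.029 to 6.1e-04 (E2) and 0.0064 to 0.028 (deubiquitinases) on chip A, and -0.061 to 0.035 (proteasome), -0.047 to 0.039 (E2) and -0.014 to 0.023 (deubiquitinases) on chip B. The cause was not tested. Among 92 named member probe sets, 57 of the values under an alternative had the opposite sign, in 35 probe sets, none of them called in either fit. The sign turned with median centring for Psma7 1382426_at (0.00036), Uba1 1367472_at (chip B) at 0.0011, Ube3a 1383909_at (0.0081), Ube3c 1373409_at (-0.0035), Usp7 1394393_at (0.017), and with quantile normalization for Psma7 1382426_at (0.0029), Psmc1 1398792_at (0.0089), Psmc2 1367711_at (0.00046), Uba1 1367472_at (chip B) at 0.0069, Ube3a 1383909_at (0.016), Usp7 1394393_at (0.031). Where the sign turned without 1 array, the lowest and highest values over the arrays left out in turn were: Psma4 1367837_at -0.097 to 0.023, Psma7 1382426_at -0.081 to 0.039, Psmb10 1374033_at -0.14 to 0.0045, Psmb5 1371348_at -0.0049 to 0.042, Psmc1 1398792_at -0.057 to 0.022, Psmc2 1367711_at -0.072 to 0.028, Psmc4 1381794_at -0.030 to 0.12, Psmc6 1379850_at -0.36 to 0.12, Psmc6 1384323_at -0.14 to 0.21, Psmd11 1374712_at -0.063 to 0.030, Psmd11 1376069_at -0.013 to 0.035, Psmd11 1380252_at -0.13 to 0.044, Psmd14 1386073_at -0.061 to 0.16, Psme2 1367710_at -0.026 to 0.0087, Psme4 1368817_at -0.036 to 0.089, Psme4 1368818_at -0.048 to 0.099, Psme4 1387345_at -0.00036 to 0.044, Psmf1 1389387_at -0.037 to 0.0020, Psmg2 1371876_at -0.013 to 0.035, Uba6 1379471_at -0.12 to 0.036, Uba6 1391236_at -0.027 to 0.15, Uba7 1386277_at -0.11 to 0.030, Ube2v1 1393991_x_at -0.079 to 0.12, Ube2v1 1395426_at -0.052 to 0.19, Ube3a 1382741_at -0.39 to 0.062, Ube3a 1383909_at -0.33 to 0.31, Ube3a 1390099_at -0.13 to 0.011, Ube3b 1371728_at -0.083 to 0.047, Ube3c 1373409_at -0.029 to 0.030, Usp14 1383073_at -0.10 to 0.0056, Usp7 1394393_at -0.19 to 0.18, Usp7 1398351_at -0.052 to 0.035, Usp9x 1372121_at -0.032 to 0.10, Usp9x 1389316_at -0.060 to 0.11, Zfand5 1381442_x_at -0.049 to 0.13. Zfand5, at the end of this list, belongs to the further pathway genes and is not among the 92 named member probe sets or the 35. No scanner files were used, so background correction could not be varied, and levels of dim probe sets above background are not known.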

Other observations

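Assembly factors of the proteasome form a group that crosses the subunit names, put together here after their values were seen. On chip A it holds the core chaperones Psmg1, Psmg2, Psmg3 and Psmg4 and the chaperones of the 19S base Psmd5, Psmd9 and Psmd10. In 6 of these 7 probe sets both forskolin arrays lay below both arrays without forskolin. Of all tested probe sets of the chip 28.0% did so, and of the proteasome probe sets, which include these, 36.4%. Because the group was chosen with its values known, its count cannot be weighed against those shares. The groups overlapped in Psmg2, and also in Pomp, an assembly factor from outside the member list (12.06 and 12.14 with forskolin against 12.17 and 12.14 without). Psmd9 measured 9.60 and 9.61 with forskolin against 9.67 and 9.70 without, and Psmg1 10.47 and 10.44 against 10.51 and 10.55. None of the 7 was called by limma with the arrays as deposited (Psmd5 and Psmg3 were with median centring), and no test of the group was made.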
